A study of Homo sapiens with 2 samples.

Results

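The genes described here are those that copy the genome in S phase, those that move a cell from G1 into S, and those that make the deoxynucleotides used for it. They were taken as a list of 59 genes chosen by function, and 52 of the 59 had a named feature on the arrays, out of 11564 named genes in all. A feature is the set of probes for 1 transcript accession, and a gene with several features was represented by the feature with the highest mean log2 intensity. The 52 genes fell into 15 for origin licensing, 9 for the replicative polymerases, 17 for the clamp and the fork, 5 for nucleotide synthesis and 6 for G1/S control. The other 7 (ORC4, DBF4, PRIM2, GINS1, CCNE2, CDK6 and RB1) were not analysed here.

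The cells were T47D, an established human breast cancer line of luminal, oestrogen receptor positive type, infected with a control lentivirus (NC) or with one carrying a short hairpin against TRPS1 (shTRPS1). TRPS1 is a GATA-type zinc finger repressor of luminal breast epithelium. Both groups grew in DMEM with 10% serum. Each group had 1 array, so no replicate error, no test and no p-value can be given, and every difference below compares 2 arrays. No source used here gives the hairpin sequence, the number of hairpins or whether the infected cells were a pool or a clone.

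Origins are licensed in G1, when the origin recognition complex, CDC6 and CDT1 load the ring-shaped MCM2-7 helicase onto DNA. In S phase the helicase is joined by CDC45 and GINS, polymerase alpha-primase lays down primers, and polymerases epsilon and delta extend the leading and the lagging strand with the sliding clamp PCNA. Cyclin D and cyclin E kinases inactivate RB1, which frees E2F factors to transcribe most of these genes, and in luminal breast cancer cells oestrogen receptor signalling drives this step through cyclin D1.

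Because E2F factors are the textbook regulators of this gene set, promoter sequences were searched for the E2F words TTTGGCGC, TTTCCCGC and TTTCGCGC on both strands. The windows came from RefSeq (GRCh38.p14) and covered 250 bases before to 50 bases after each start site. A window was found for 44 of the 52 measured genes, and 22 of these 44 held an E2F word, against 5.58% of the 9330 array genes with a window and 3.30% of all 27305 genes with one. The word was present in 9 of 13 licensing genes, 4 of 8 polymerase genes, 6 of 14 clamp and fork genes, 2 of 5 nucleotide genes and 1 of 4 G1/S regulators. The MCM6 window held 4 such words. The word CCAAT, which NF-Y binds, was in at least 1 window of 59.1% of the 44 genes and of 43.2% of the array genes with a window. These matches describe the letters in the windows and do not show binding.

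The following 4 promoters belong to the genes with the largest differences among those above background on both arrays whose window held an E2F word. Each line gives the 250 bases before the start site, read 5′ to 3′ on the gene's strand, with the E2F word in capitals.
E2F1: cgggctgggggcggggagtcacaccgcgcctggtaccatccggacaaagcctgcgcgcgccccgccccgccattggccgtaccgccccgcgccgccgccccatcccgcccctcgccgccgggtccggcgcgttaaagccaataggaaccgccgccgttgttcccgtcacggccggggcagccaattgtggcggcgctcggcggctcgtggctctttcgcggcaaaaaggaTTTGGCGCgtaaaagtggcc
POLA2: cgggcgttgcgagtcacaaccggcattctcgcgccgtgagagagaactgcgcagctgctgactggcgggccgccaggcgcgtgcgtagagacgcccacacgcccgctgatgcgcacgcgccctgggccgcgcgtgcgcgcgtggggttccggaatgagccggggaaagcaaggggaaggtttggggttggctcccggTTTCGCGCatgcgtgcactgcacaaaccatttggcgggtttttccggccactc
TYMS: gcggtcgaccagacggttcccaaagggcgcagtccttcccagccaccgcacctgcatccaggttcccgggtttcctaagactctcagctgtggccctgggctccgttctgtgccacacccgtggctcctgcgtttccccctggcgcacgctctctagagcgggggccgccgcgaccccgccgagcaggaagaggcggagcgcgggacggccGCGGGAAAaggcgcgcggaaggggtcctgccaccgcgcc
POLE: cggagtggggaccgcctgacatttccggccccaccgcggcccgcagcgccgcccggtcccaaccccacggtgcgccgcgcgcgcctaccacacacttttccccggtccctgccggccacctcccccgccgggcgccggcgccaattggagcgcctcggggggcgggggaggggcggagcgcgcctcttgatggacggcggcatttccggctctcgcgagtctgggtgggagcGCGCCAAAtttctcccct
The E2F1 window lies at chr20:33686386-33686635 on the minus strand, and its word begins 20 bases before the start site. The POLA2 window lies at chr11:65261712-65261961 on the plus strand, with the word 53 bases before the start. The TYMS window lies at chr18:657403-657652 on the plus strand, where the word is on the opposite strand and begins 39 bases before the start. The POLE window lies at chr12:132687343-132687592 on the minus strand, with the word again on the opposite strand, 18 bases before the start. Each of the 4 genes had a single window and a single E2F word, close upstream of the start site.

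The values are deposited intensities on a linear scale, and differences are log2 of the shTRPS1 intensity minus log2 of the NC intensity. The 2 arrays correlated at r = 0.961 across 28973 features, which are not independent replicates, and the median difference over all named genes was 0.05. A gene was above background on an array if it exceeded the 95th percentile of 60 olfactory receptor features, which was 397 in NC and 325 in shTRPS1. TRPS1 itself read 726 in NC and 603 in shTRPS1, a difference of -0.27, which is smaller than the SD of 0.34 between features of the same gene given below. No source used here says where its probes lie relative to the hairpin's target. Of 11 luminal markers 10 were above background on both arrays (TFF1 was not).

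The set as a whole was slightly higher in the shTRPS1 array. The median difference over the 52 genes was 0.23, against 0.05 over all 11564 named genes, and 35 of the 52 differences were positive (67.3%, against 53.4% of all named genes). Over the 38 genes above background on both arrays the median was 0.29, against 0.04 over the 5829 such genes in all, and 26 of the 38 were positive (68.4%, against 53.2%). The genes were taken as a list with earlier results on these arrays known, so these figures describe the list.

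Few genes of the set reached 2-fold. A gene was called if its intensities differed at least 2-fold and at least 1 array was above background, which could apply to 46 of the 52. POLA1 alone was called higher (2.17% of the 46, against 3.78% of all genes above background) and CCND3 alone was called lower (2.17%, against 2.37%). These shares are near the background of all genes and are not a result about the set. By measured values PRIM1, at 1.98-fold, lay just outside the threshold and POLA1, at 2.12-fold, just inside it, but NC was below background for both, so the data bound them only at 1.61-fold and 1.29-fold or more. CCND3 was 2.05-fold lower with both arrays above background. At a threshold of 1.5-fold, 9 of the 46 were higher (19.6%, against 13.8% of all genes) and 2 were lower (4.35%, against 8.46%). With both arrays above background, 0 of 38 genes were at least 2-fold higher (against 1.39%) and 1 was lower (2.63%, against 1.32%). At 1.5-fold 5 of these 38 were higher (13.2%, against 9.13%) and 1 was lower (2.63%, against 7.03%). No gene of the set reached 3-fold, where the shares of all genes above background were 0.662% higher and 0.59% lower.

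**Figure D1:**
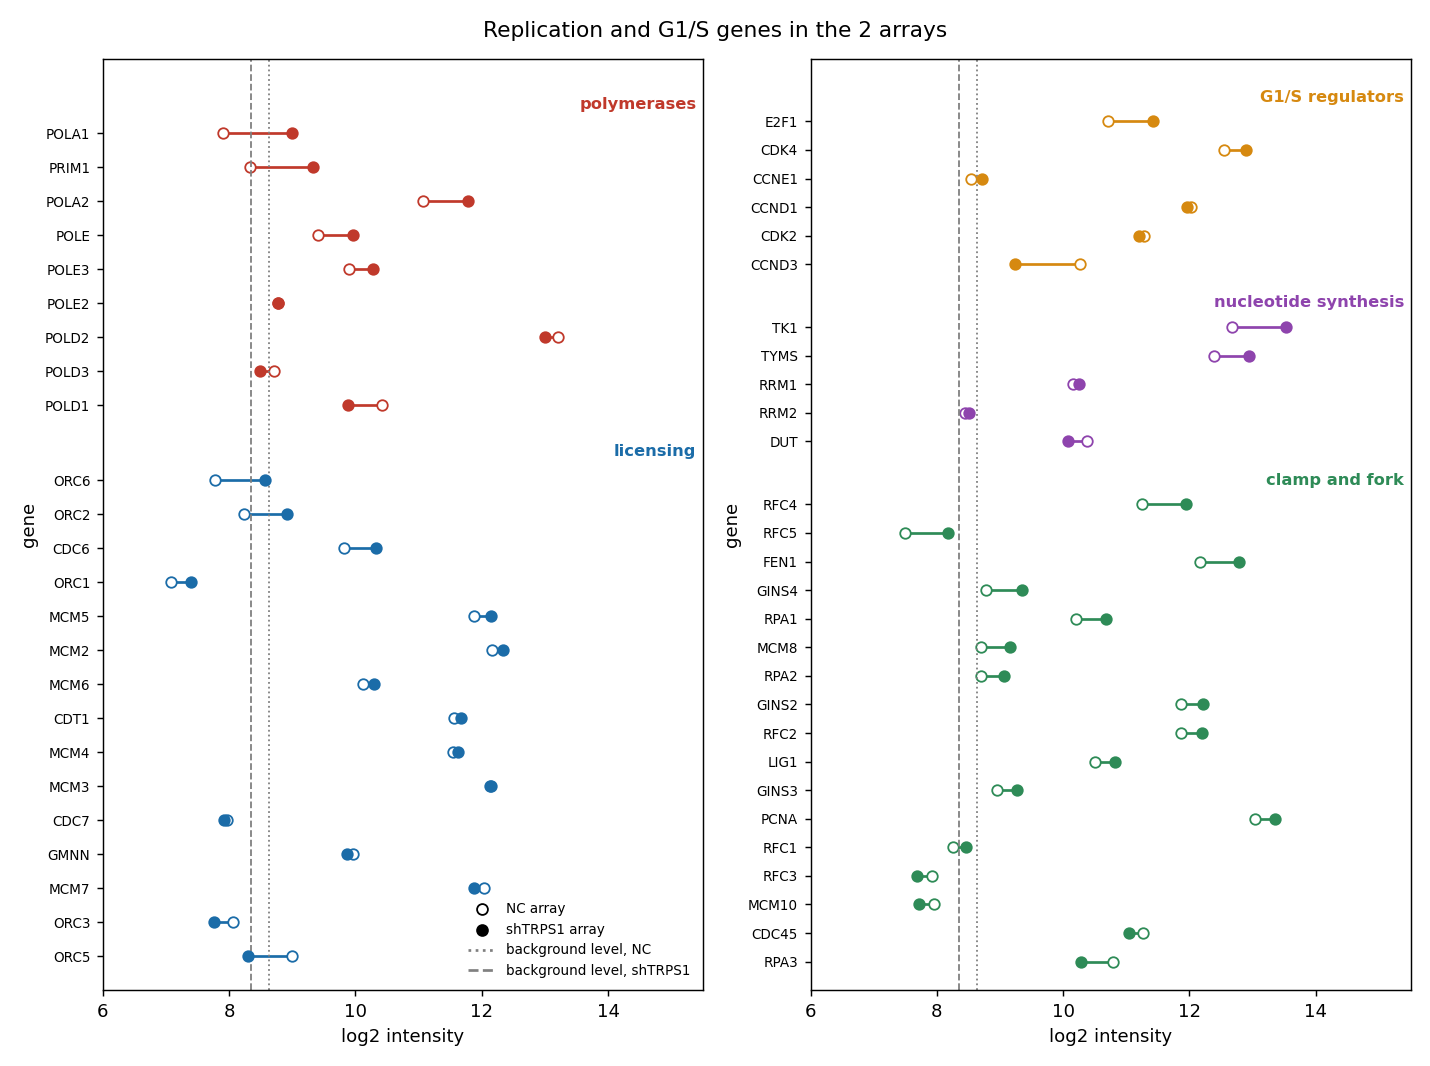
Log2 intensity of each of the 52 measured genes (vertical axis, grouped by role) in the NC array (open circle) and the shTRPS1 array (filled circle), with the background level of each array as a vertical line. Lines run to the right for 35 genes and to the left for 17, most are short, and the longest are those of POLA1, CCND3 and PRIM1.

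**Figure D2:**
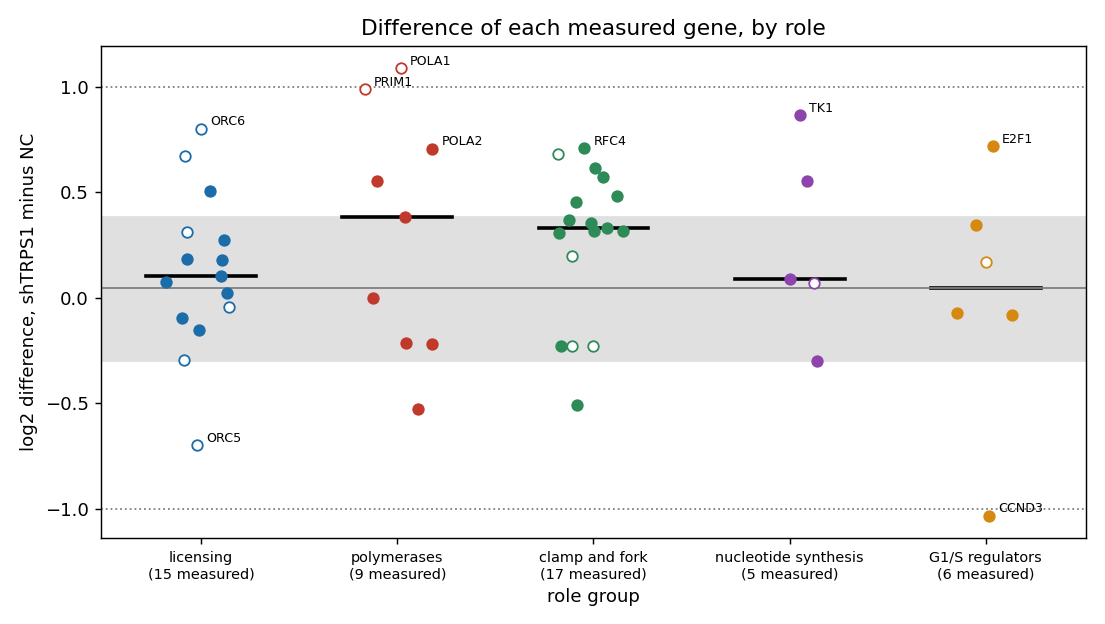
Log2 difference, shTRPS1 minus NC, of each measured gene by role group, with the group median as a black bar. Filled points are above background on both arrays, the grey line and band give the median and the quartiles of all named genes, and the dotted lines mark 2-fold. The medians of polymerase and of clamp and fork genes, 0.38 and 0.33, sit near the upper quartile of all genes.

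Among licensing genes the helicase subunits were nearly level between the arrays while the origin recognition subunits were dim and scattered. The 15 measured genes had a median difference of 0.10 with 10 positive, and none was called. The 6 subunits of the MCM2-7 ring, which are needed in equal numbers, all lay above background on both arrays and differed by -0.16 to 0.27. MCM5 read 3750 in NC and 4531 in shTRPS1, the largest difference in the ring. MCM7 read 4192 and 3765, the only subunit lower in shTRPS1, although MCM3, at 0.02, turned to just below 0 under each of 3 rescalings of the arrays. MCM2, from 4565 to 5188, and MCM6, from 1116 to 1261, both differed by 0.18, while MCM4 differed by 0.07. The SD between the 6 subunit differences was 0.15, against 0.37 to 0.45 over all genes with mean log2 intensities between 10 and 13.

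The loading factors were all above background. CDC6, the ATPase that closes the ring on DNA, read 903 in NC and 1281 in shTRPS1, a difference of 0.50 and the largest among the licensing genes above background on both arrays. CDT1, its partner in loading, read 3022 and 3249, and geminin (GMNN), the inhibitor of CDT1, read 997 and 931, a difference of -0.10. CDT1 and its inhibitor were thus both close to level. CDC7, the kinase that triggers firing, read 250 and 242, below background on both arrays.

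None of the 5 measured subunits of the origin recognition complex was above background on both arrays, and they pointed in both directions. ORC6 read 218 in NC and 380 in shTRPS1, which exceeds the shTRPS1 background but not that of NC, so no fold is given. ORC2 read 302 and 481, at least 1.21-fold higher. ORC5 read 510 and 314 by its brightest feature, at least 1.57-fold lower, while its second feature read 70.7 and 70.6 and was below background. ORC1 and ORC3 were below background on both arrays, with measured differences of 0.31 and -0.30. This spread gives no common direction for the complex.

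Polymerase alpha-primase, which makes the RNA-DNA primers, had positive differences in all 3 measured subunits, of which POLA1 alone was called. Polymerase delta had negative differences in the 3 subunits on the list and none was called. Those of POLD2 and POLD3 were smaller than the SD of 0.34 between features of the same gene. POLA1, the catalytic subunit of polymerase alpha, read 240 in NC, below background, and 510 in shTRPS1, a ratio of at least 1.29-fold, with 2.12-fold between the measured values. PRIM1, the primase catalytic subunit, read 323, also below background, and 640, at least 1.61-fold higher. POLA2, the regulatory subunit, was above background on both arrays and went from 2159 to 3520, which is 1.63-fold. By measured values the differences of the 3 subunits lay between 0.71 and 1.09. With NC below background for POLA1 and PRIM1, the data do not place these 2 in that range. The size is fully measured for POLA2 alone.

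For polymerase delta, POLD1, the catalytic subunit of the lagging strand enzyme, read 1367 in NC and 946 in shTRPS1, a difference of -0.53. POLD2 went from 9481 to 8156 and POLD3 from 417 to 357, both differing by -0.22, with POLD3 close to background. All 3 were above background on both arrays and none was called. For polymerase epsilon, POLE, the catalytic subunit of the leading strand enzyme, read 680 and 998, a difference of 0.55, and POLE3, a histone-fold subunit, read 949 and 1236, a difference of 0.38. POLE2 was level, at 436 in NC and 435 in shTRPS1. POLD4 and POLE4, further subunits of delta and epsilon from the related list described below, were above background on both arrays. They differed by -0.33 and -0.20, less than the SD between features of the same gene. The median over the 9 polymerase genes was 0.38, but -0.0037 over the 7 above background on both arrays, since that leaves out POLA1 and PRIM1. With 1 array per group no difference between the complexes could be tested.

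**Figure D3:**
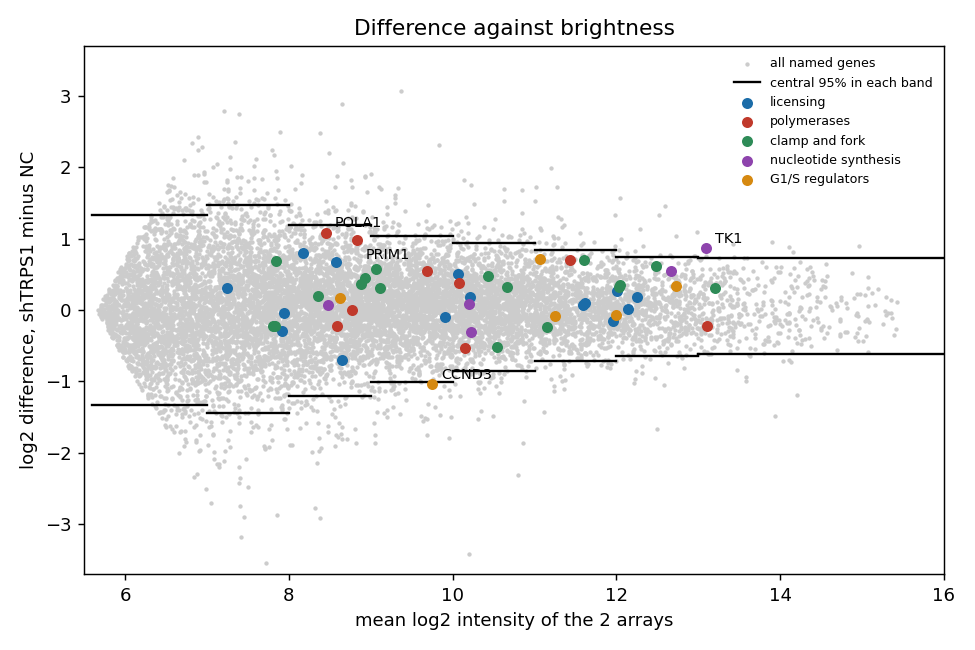
Log2 difference, shTRPS1 minus NC, against the mean log2 intensity of the 2 arrays for all named genes (grey) and for the measured genes of the set (coloured by role), with black lines at the central 95% of all genes in each band of brightness. TK1 lies above and CCND3 below these lines, and the other 50 genes of the set lie inside them. By construction the lines leave out a fixed share of all genes, and the share of the set outside them is near it.

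Most clamp and fork genes were higher in the shTRPS1 array, with 13 of 17 positive and a median of 0.33, and none was called. Of the 13 above background on both arrays, 11 were positive. FEN1, the nuclease that trims Okazaki fragments, read 4619 in NC and 7069 in shTRPS1, a difference of 0.61. LIG1, the ligase that then seals them, read 1453 and 1809, a difference of 0.32. Both enzymes of fragment joining thus had positive differences, neither of 2-fold. That of LIG1 was smaller than the SD of 0.34 between features of the same gene.

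Among the partners of the helicase, GINS4 read 439 in NC and 653 in shTRPS1, a difference of 0.57, GINS2 went from 3719 to 4754 and GINS3 from 495 to 615, differences of 0.35 and 0.31. CDC45, which binds the same helicase, went the other way, from 2471 to 2105, a difference of -0.23. MCM8, a helicase of recombination, differed by 0.45 from 415 to 568, close to background, and MCM10, which helps activate the helicase, was below background on both arrays. The differences of CDC45 and GINS3 were smaller than the disagreement between features of the same gene, and none of these genes was called.

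RPA, the heterotrimer that coats single-stranded DNA, was not uniform. RPA1, its large subunit, read 1173 in NC and 1638 in shTRPS1, and RPA2 read 415 and 536, differences of 0.48 and 0.37. The NC value of RPA2 was close to background. RPA3, the small subunit, read 1772 and 1244, a difference of -0.51, the lowest in the fork group. Within this trimer the subunits thus pointed in both directions.

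PCNA and its loader, replication factor C, included several genes with 2 features, each for a different transcript accession. PCNA read 8450 in NC and 10448 in shTRPS1 by its brightest feature, a difference of 0.31, but 4813 and 4645, or -0.05, by the other. RFC4 read 2426 and 3962 by its brightest feature, a difference of 0.71 and the largest in the fork group, but 2333 and 2516, or 0.11, by the other. RFC2 differed by 0.33 and 0.08. RFC3 was below background on both arrays by both features, at -0.23 and 0.68. RFC5 was below background on both, and RFC1 read 306 and 351, above background in shTRPS1 alone. The size of the difference for PCNA and RFC4 thus depended on which transcript feature was read.

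Gaps between features of the same gene were usual on these arrays. Across 519 genes that had 2 or more features above background, the differences of the 2 brightest features were a median of 0.28 apart. The SD of this gap was 0.48, which is 0.34 per feature, the SD between features of the same gene used here. In 66.9% of these genes both features had the same sign. Single differences below about 0.34, which include all 6 MCM2-7 subunits, are therefore within that SD per feature. In the 6 genes of the set with 2 features, the feature that the series' second table also lists was nearer to 0 in 6 of 6, against 225 of 457 genes (49.2%) that have features of both kinds. With only features above background on at least 1 array, the counts were 4 of 4 and 143 of 275 (52%). This split was chosen after its values were seen, and no source used here says what sets the listed features apart.

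**Figure D4:**
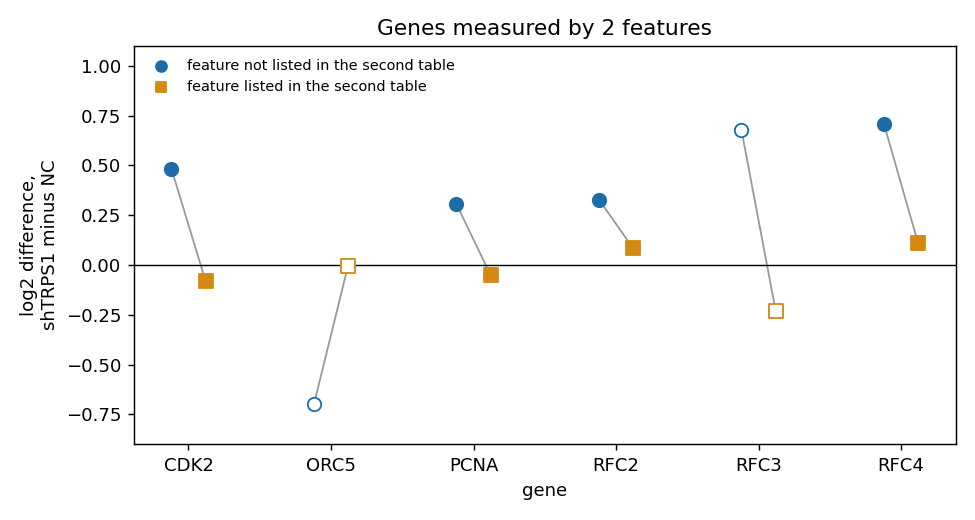
Log2 difference, shTRPS1 minus NC, of both features of the 6 genes with 2 features. Circles are features absent from the second table of the series and squares are features listed in it, filled where both arrays were above background. The signs disagree for CDK2, PCNA and RFC3, and in each gene the square is nearer to 0.

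In nucleotide supply TK1 and TYMS were higher in the shTRPS1 array, neither by 2-fold. DUT had a small negative difference and both subunits of ribonucleotide reductase were close to level. TK1, the thymidine kinase of the salvage route, read 6503 in NC and 11827 in shTRPS1, which is 1.82-fold and a difference of 0.86. TYMS, thymidylate synthase, the enzyme that makes dTMP and the target of fluorouracil, read 5377 and 7896, a difference of 0.55. TK1 was the one gene of the set above the central 95% of genes of like brightness, which ended at 0.73. By construction a fixed share of all genes lies outside the central 95%. With 1 of the 52 above and 1 below, the set was near that share, which is not a result about the set. DUT, which hydrolyses dUTP to supply dUMP, read 1328 and 1078, a difference of -0.30. This is smaller than the SD of 0.34 between features of the same gene.

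RRM1, the large subunit of ribonucleotide reductase, read 1140 in NC and 1212 in shTRPS1. RRM2, the small subunit, read 348 and 365, the first of which is below background. Their differences of 0.09 and 0.07 were within the disagreement between features. No gene of this group was called.

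Among G1/S regulators the cyclins and kinases pointed in different directions. CCND3, cyclin D3, read 1235 in NC and 602 in shTRPS1, a difference of -1.04 with both arrays above background. It lay just below the central 95% of genes of like brightness, as a fixed share of all genes does by construction. CCND1, cyclin D1, the D-type cyclin under oestrogen receptor control in luminal cells, was level at 4176 and 3971, a difference of -0.07. CCNE1, cyclin E1, read 373, just below background, and 419, at least 1.06-fold higher. Of the 3 measured cyclins CCND3 was the furthest from level.

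E2F1, the transcription factor released by RB1, read 1669 in NC and 2745 in shTRPS1, which is 1.64-fold and a difference of 0.72. CDK4, the kinase partner of D cyclins, read 6012 and 7618, a difference of 0.34, about the size of the SD between features of the same gene. CDK2, the partner of cyclin E, differed by -0.08 by its brightest feature, from 2498 to 2363, and by 0.48 by the other, from 1790 to 2504. The 6 genes had a median of 0.05, close to that of all genes, and E2F1 and CCND3 lay at opposite ends.

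The genes were then set side by side by whether the promoter window held an E2F word. The 22 with a word had a median of 0.25, from -0.30 to 1.09, with 15 positive. The 22 without had a median of 0.32, from -1.04 to 0.99, with 16 positive. E2F1, POLA2, TYMS and POLE, whose promoters were printed because of their large differences, differed by 0.55 to 0.72. MCM6 with its 4 words differed by 0.18. The 3 genes with the lowest differences among those with a window (CCND3, ORC5 and POLD1) had no word. Among the highest, POLA1 (1.09) had a word, while PRIM1 (0.99), TK1 (0.86) and ORC6 (0.80) had none.

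Of a wider list of 86 related genes outside the set, 73 were measured and 55 were above background. Their median difference was 0.20, with 51 of 73 positive (69.9%), against 53.4% of all named genes. Of the 55 above background 4 were called higher and 1 lower, against 263 (3.78%) and 165 (2.37%) of all 6949 genes above background. Only CDC25A among the higher calls was above background on both arrays. Among the 46 related genes above background on both, CDC25A alone was thus called higher and CTPS1 alone lower. The shares of all such genes were 1.39% and 1.32%. CDC25A, the phosphatase that activates CDK2 at the G1/S boundary, read 805 in NC and 1702 in shTRPS1, 2.11-fold higher with both arrays above background. TOP2A and TOP1, the topoisomerases that relieve the twist ahead of the fork, were at least 2.77-fold and 1.66-fold higher, with NC values of 360 and 270 below background. CCNC, cyclin C, was at least 1.03-fold higher, from 182 to 407, again with NC below background. CTPS1, which makes CTP, read 1805 and 898 and was 2.01-fold lower, the only call downward.

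By group, 6 of 7 other licensing and firing genes, 12 of 17 other fork genes, 15 of 24 other nucleotide genes and 18 of 25 other G1/S regulators had positive differences. Their medians were 0.40, 0.12, 0.14 and 0.27. Over the 2, 11, 20 and 13 of them above background on both arrays, the medians were -0.12, 0.05, 0.15 and 0.09. Of the 46 related genes above background on both arrays, 29 were positive, with a median of 0.06, close to the 0.04 of all such genes. The related genes thus leaned the same way as the set over all measured members and less so where both arrays were above background, a contrast for which no test was run.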

How the data were processed

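Per the labels' protocols, total RNA was labelled with Cy3 and hybridised to one-colour NimbleGen human arrays. The authors deposited 1 linear intensity per transcript accession and array, normalized with RMA per the submitters' processing notes. No source used here gives its version, its steps or the genome build of the design. The lowest intensities were 50.04 and 50.08, so dimmer transcripts are not analysed here. Of a second table, whose 8 sample columns have names found in no label, only the accessions were used.

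Log2 of the deposited intensities was taken. RefSeq accessions in the GRCh38.p14 gene table, otherwise the platform annotation, named 12598 of 28973 features. Where 1 array was below background, the fold was computed against the background level of that array and is given as "at least", or not at all if under 1. No test was run, since each group had 1 array, which limits the precision.

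Described genes were those called, the 3 largest differences per role with both arrays above background, those with 2 features, and then the remaining measured members. Related genes were named if called, and POLD4 and POLE4 were added as polymerase subunits. The members and lists were chosen with earlier results of these data known. Alternatives were 3 rescalings (medians, quantiles, loess with span 0.4), the mean or median feature, other background filters and fold thresholds, the accessions of the second table, and means in place of medians. The procedure was tested on simulated data, with larger planted changes in bright genes and less noise than on these arrays. That test does not bear on calls near 2-fold or near background. Python 3.11.15, numpy 2.4.6, pandas 2.3.3, statsmodels 0.14.6 and matplotlib 3.10.9 were used.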

Additional observations from a re-analysis of the deposited data

How the results depend on the processing

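Rescaling did not change the calls. After median-centring, quantile normalization and loess, POLA1 (1.03 to 1.05) and CCND3 (-1.11 to -1.08) were called as reported. Each rescaling moved the set median to 0.19. MCM3, at 0.02, was the only gene whose sign turned under a rescaling. With both arrays required above background, 0 genes were called higher, the set median was 0.29, the nucleotide median 0.32 and the polymerase median -0.0037, because POLA1 and PRIM1 drop out. With at least 1 array above background the set median was also 0.29. At 1.5-fold 9 genes were called higher and 2 lower, and at 3-fold 0 and 0. Over the 11 genes with features listed in the other deposited file, 0 were called higher and 0 lower, and the set median was 0.084, that of clamp and fork 0.10, licensing -0.0025 (1 gene) and polymerases 0.99 (1 gene, PRIM1). Over features outside that file the polymerase median was 0.19 and the G1/S median 0.33. The nucleotide mean was 0.26 against a median of 0.09. Of 318 single-gene values under alternatives, 309 moved by less than 0.34, the SD between features of 1 gene. The 9 that moved further belonged to ORC5, RFC3, PCNA, RFC4 and CDK2, which have 2 features. Genes with 1 feature keep the same value under every choice of feature, and median-centring shifts all genes alike. Most of the 318 values could therefore hardly move, and the count is not a measure of stability. No paired analysis was possible because each group has 1 array. Dim signal limits part of the comparison: 14 of the 52 had at least 1 array below background, and the SD over all genes was 0.74 at mean log2 intensities of 7 to 8 against 0.37 at 12 to 13.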
